A study of Mus musculus with 6 samples.

Results

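The mitochondrial respiratory chain was followed here through the nuclear-encoded subunits of complexes II to V. The libraries were labelled as cardiac fibroblasts and came from mice with chemically induced liver injury and from control mice. Members were taken by symbol: rows named Sdha to Sdhd, Cyc1, or any name starting with Uqcr, Cox4 to Cox8 or Atp5, without the 9 rows marked as pseudogenes by the suffix -ps. The rule gave 48 of the 32479 rows of the expression table, of which 4 belong to complex II, 9 to complex III, 18 to complex IV and 17 to complex V. A total of 46 had a mean of at least 1 FPKM (fragments per kilobase of transcript, relative to library size) and were tested. The other two, Cox6b2 and Cox7b2, averaged 0.698 and 0.075 FPKM. Among the 46, Cox7a2l is known mainly as a factor that joins chain complexes into supercomplexes, and Cox6c2 is a processed pseudogene in the GENCODE annotation. Without them 44 members were left, the number of calls given below stayed at 7 and the median fold change at 0.02.

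The study sequenced messenger RNA in 6 bulk libraries of primary cells labelled as cardiac fibroblasts from C57BL/6J mice, an inbred laboratory strain. The Control group had 3 mice, and the CCL4 group had 3 mice given carbon tetrachloride (CCl4), a liver toxin used to model cirrhosis. The design text puts each library with a mouse of its own and asks how cirrhosis acts on the heart. Dose, route and duration of CCl4, the vehicle given to controls, and the age and sex of the mice were not given in the sources used, and no genetic alteration is named for either group.

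Complex II, succinate dehydrogenase, takes electrons from the citric acid cycle. Complex III passes electrons from ubiquinol to cytochrome c and complex IV passes them on to oxygen, with protons pumped across the inner membrane. Complex V, the ATP synthase, lets the protons flow back through a ring of c subunits and makes ATP. Heart muscle is dense in mitochondria, and several complex IV subunits exist as a striated muscle form and a widely expressed form.

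The label of the libraries was checked against marker genes. Transcripts of heart muscle cells were far more abundant than those of fibroblasts in all 6 libraries. The 17 cardiomyocyte markers summed to 16617 to 19946 FPKM in control mice and 22425 to 24161 FPKM in CCl4 mice, and the 16 fibroblast markers to 490 to 800 and 670 to 679 FPKM. The levels below are those of RNA in which muscle transcripts outweigh fibroblast transcripts. In bulk samples fewer cells of a type and less RNA per cell cannot be told apart. Of all rows tested 31.8% were called, 9.64% higher and 22.2% lower in CCl4. Of the 17 cardiomyocyte markers 3 were called higher and 1 lower (23.5%). The lower one was Myh7, from a mean of 955 to 71.2 FPKM, and of the higher ones Actc1 went from 1735 to 5840 FPKM. Of the 16 fibroblast markers 10 were higher (62.5%). The listed fibroblast genes had a median of 3.20 to 6.00 FPKM in the controls and 12.1 to 12.9 FPKM in the CCl4 mice. In other cell types, 1 of 12 endothelial and 1 of 9 tested leukocyte markers were higher and 1 of each lower (16.7% and 22.2% called). Of 9 smooth muscle and pericyte markers 3 were higher (33.3%). Of 7 brown adipocyte markers only Cidea averaged at least 1 FPKM, and it rose from 18.4 to 33.3 FPKM. In no library did Ucp1 exceed 0.03 FPKM, Lep 0.02 FPKM, or Adipoq, Plin1, Cidec and Adrb3 0.40 FPKM. No listed marker was at 0 in every library. The part of these shifts in the results below was not tested. Transcripts of the mitochondrial genome took 48.6% to 50.7% of the FPKM sum in control and 52.0% to 53.2% in CCl4 libraries.

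The comparison of CCl4 with control mice showed small differences of mixed direction. With limma on log2(FPKM + 1) and adjusted p under 0.05, 7 of the 46 tested members were called (15.2%), against 31.8% of all 10995 rows tested. The 5 that rose were Cyc1 of complex III, Cox7a1, Cox4i2 and Cox6a1 of complex IV and Atp5d of complex V, which compares with 9.64% of all rows that rose. The 2 that fell were Atp5g2 and Atp5c1 of complex V, against 22.2% of all rows. All 46 members had an absolute log2 fold change under 0.5, as did 86.7% of all rows, and the range ran from -0.34 to 0.47. The median was 0.02 over the members and -0.09 over all rows. A fold change lay above 0 in 26 members (for all rows the share was 37.4%). Of the members 16 had an unadjusted p under 0.05, against 44.5% of all rows. The groups did not overlap in 15 members, 8 of them higher and 7 lower in CCl4, against 48.7% of all rows.

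**Figure D1:**
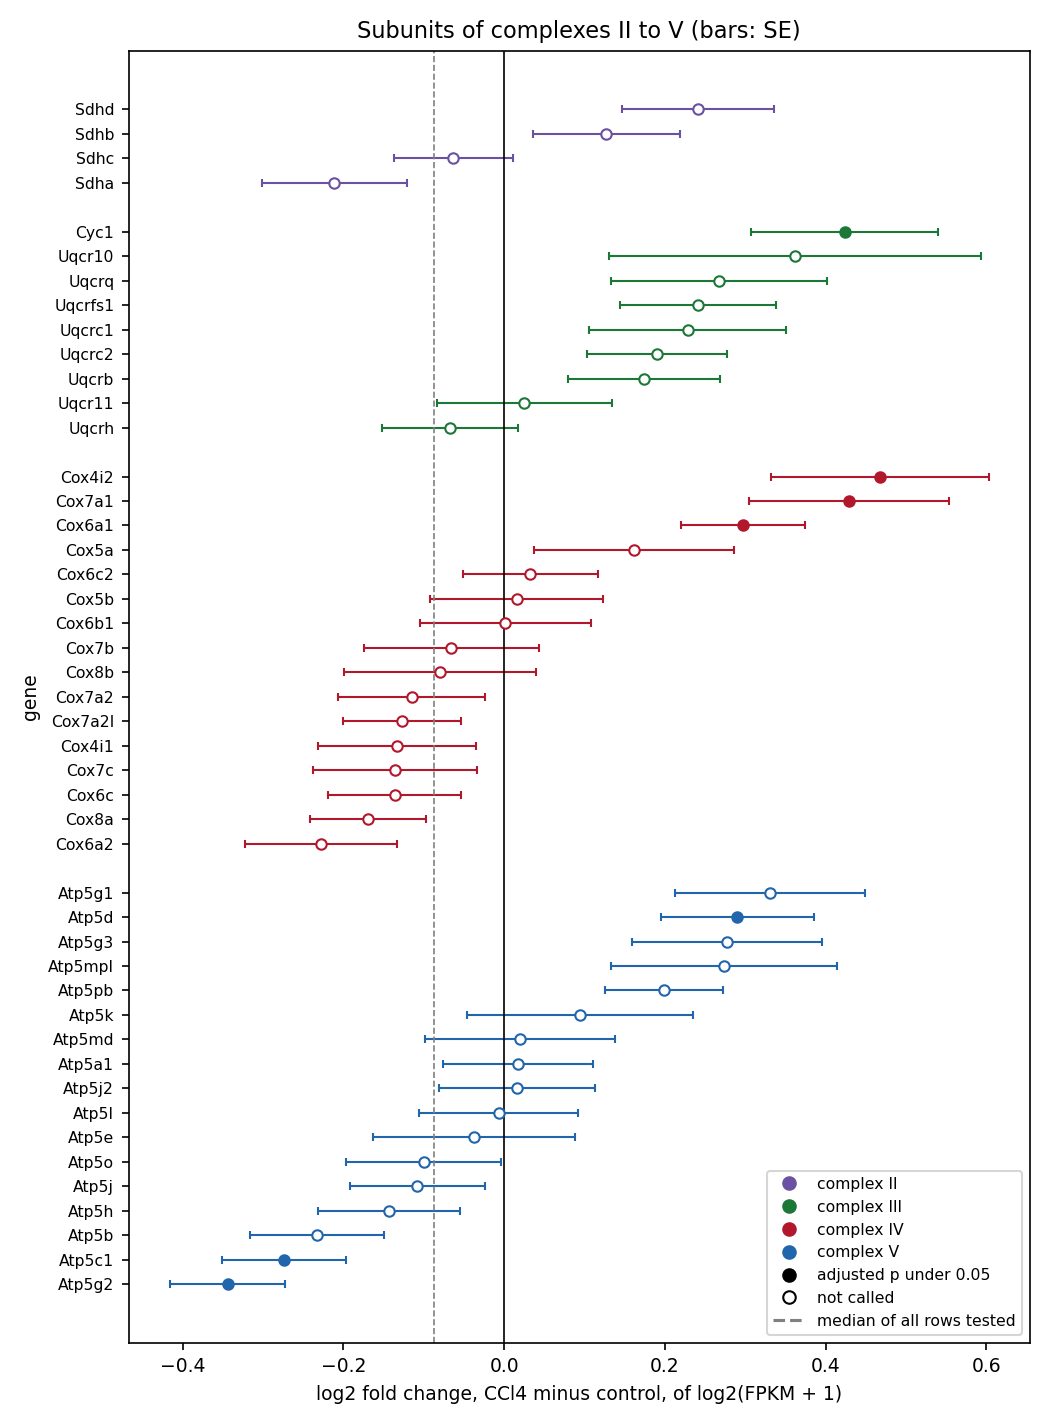
Log2 fold changes (x axis, CCl4 minus control, of log2(FPKM + 1)) of the 46 tested subunits (y axis) ordered within complexes II, III, IV and V, with bars of 1 SE over 3 control and 3 CCl4 libraries. Filled points are the 7 called genes; 8 of the 9 complex III points lie to the right of 0, while complexes IV and V spread to both sides, and the dashed line is the median of all rows at -0.09.

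How many members passed the test, and in which direction, depended on the scaling of the libraries and on single libraries. Scaling to a common sum (TPM) gave 0 higher and 11 lower. Leaving out the mitochondrial genome and scaling each library to the FPKM sum of its other rows gave 2 higher and 6 lower. Trimmed-mean (TMM) scaling gave 7 and 0, median-ratio scaling 8 and 0, and quantile scaling 12 and 1. TPM moved the median of all rows from -0.09 to -0.23 and that of the members from 0.02 to -0.14. The members lay above all rows by 0.10 as deposited and by 0.09 under TPM. TPM divides each library by a single factor and so could hardly change that distance. That distance rested on single libraries, since it was 0.00409 without CCl4 1 and 0.0558 without control 3, and 0.17 without CCl4 2 and 0.15 without control 1. The members' median itself ran from -0.06 without CCl4 1 to 0.08 without control 1. The library of control mouse 1 was the highest control in 42 of the 46 members, and the members summed to 10099 FPKM there, against 8823 and 8537 FPKM in the other two controls and 8689 to 9656 FPKM in CCl4 libraries. Without it 15 members were higher and 2 lower. Without control 2 the counts were 0 and 1, without control 3 they were 0 and 2, without CCl4 1 they were 1 and 2, without CCl4 2 they were 1 and 1, and without CCl4 3 they were 0 and 1. Atp5g2 was called in all 6 of these fits.

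In complex II none of the 4 subunits passed the test with limma, although 2 had an unadjusted p under 0.05. Their mean levels over the 6 libraries ran from 97.6 FPKM for Sdhc, a membrane anchor, to 279 FPKM for Sdha, the flavoprotein that oxidises succinate. Sdha stood at 332, 292 and 277 FPKM in the controls against 249, 255 and 273 FPKM in the CCl4 mice (log2 fold change -0.21 ± 0.09 SE, adjusted p = 0.107). Sdhd, the other membrane anchor, stood at 249, 204 and 216 FPKM in the controls against 250, 260 and 278 FPKM in the CCl4 mice (0.24 ± 0.09, adjusted p = 0.0843). In both genes the groups did not overlap, with Sdha lower and Sdhd higher in CCl4, and neither difference passed the test. Sdhb, the iron-sulfur subunit, and Sdhc overlapped between groups.

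In complex III 8 of the 9 subunits had a fold change above 0, with a median of 0.23, and Cyc1 was the 1 that passed the test (11.1%). Cyc1 encodes cytochrome c1, the haem protein that hands electrons to cytochrome c, and lies at chr15:76343523-76346260 (GRCm38, plus strand). It measured 208, 158 and 157 FPKM in the controls against 235, 223 and 239 FPKM in the CCl4 mice, and so rose from 174 ± 29.2 to 232 ± 8.14 FPKM (SD, n = 3 each), a log2 fold change of 0.42 ± 0.12 (adjusted p = 0.0264 by limma). All CCl4 libraries were above all controls, and control 1 was nearest to them. The call was lost without control 2, without control 3 and without any 1 of the 3 CCl4 libraries, where the adjusted p was 0.0567 to 0.0872, and with TPM (0.116) and with no filter on low values (0.0814).

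The most abundant complex III member was Uqcrfs1, the Rieske iron-sulfur protein. It stood at 376, 307 and 307 FPKM in the controls against 395, 379 and 392 FPKM in the CCl4 mice, without overlap (0.24 ± 0.10, adjusted p = 0.0899). The core proteins Uqcrc1 and Uqcrc2 and the small subunits Uqcrb, Uqcr10, Uqcr11 and Uqcrq overlapped between groups. Uqcrh, the acidic hinge protein that helps cytochrome c1 meet cytochrome c, was the only complex III subunit with a fold change below 0. Its levels were 176, 156 and 161 FPKM in the controls against 169, 150 and 151 FPKM in the CCl4 mice. The ratio of Cyc1 to Uqcrh, which does not depend on library scaling, was 1.18, 1.01 and 0.974 in the controls against 1.39, 1.48 and 1.58 in the CCl4 mice. The ratio was therefore higher in each CCl4 library than in any control.

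The complex III subunits also stood higher against complex IV within each CCl4 library than within each control. Each gene was set against its own mean over the 6 libraries on the log2 scale, and the median for complex IV was taken from the median for complex III in each library. The difference was -0.03, -0.10 and -0.20 in control and 0.08, 0.14 and 0.15 in CCl4 libraries. The gap between the medians of the log2 fold changes of complexes III and IV was 0.30 as deposited and 0.22 with quantile scaling. It ran from 0.24 to 0.33 when 1 library was left out. The other scalings divide each library by a single factor, so their gap of 0.30 was fixed in advance and is no test. The median of complex III stayed above 0 under all 6 scalings, from 0.07 with TPM to 0.32 with median-ratio scaling. That of complex IV was -0.07 as deposited, -0.23 with TPM and -0.15 without the mitochondrial genome, and turned to 0.02 with TMM, 0.02 with median-ratio and 0.07 with quantile scaling.

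**Figure D2:**
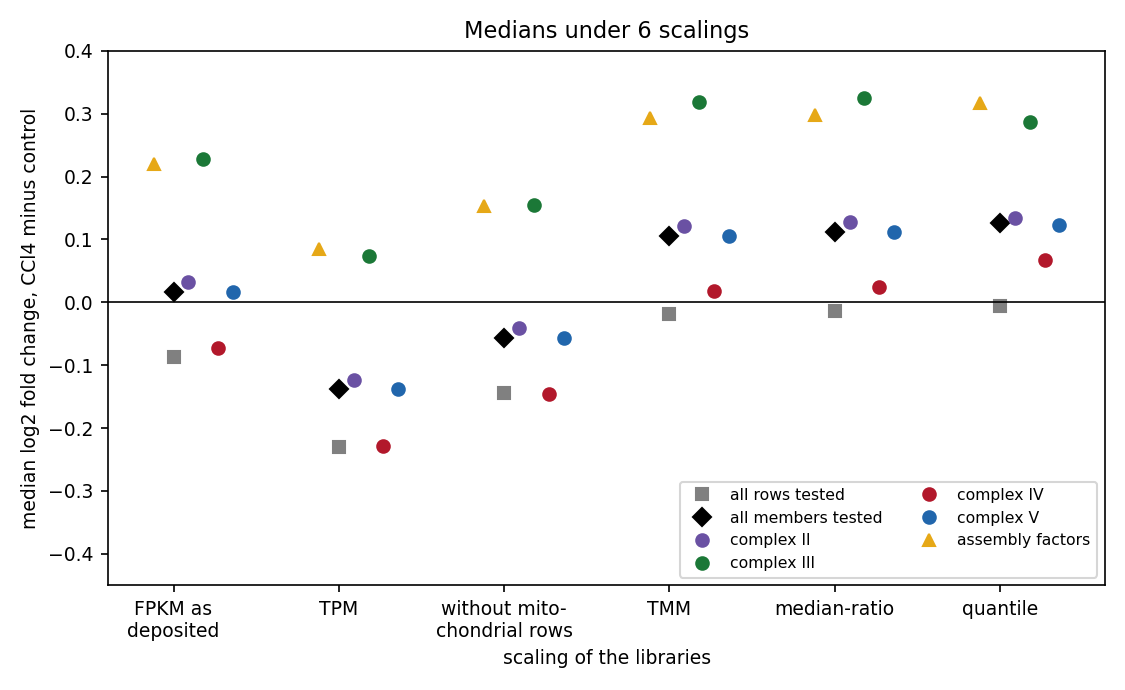
Median log2 fold change (y axis, CCl4 minus control) of all rows tested, all members, each complex and the assembly factors under 6 ways of scaling the libraries (x axis). Under each scaling complex III lies above complex IV and the members above all rows. All scalings but quantile use at most a single factor per library, which leaves these gaps nearly fixed. The sign of the complex IV median changes between -0.23 with TPM and 0.07 with quantile scaling.

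In complex IV 3 of the 16 tested subunits passed the test (18.8%), all of them higher, while 9 had a fold change below 0. Each called subunit is 1 of a pair of isoforms that can stand at the same place in the enzyme. Cox6a2, the heart and skeletal muscle form of subunit 6A, was the most abundant complex IV member at a mean of 719 FPKM, and Cox6a1 is its widely expressed counterpart. Cox7a1 is the striated muscle form of subunit 7A and Cox7a2 the widely expressed form. Cox4i2, a form of subunit 4 known for its oxygen-dependent expression, stood at a mean of 6.50 FPKM, against 417 FPKM for the common form Cox4i1.

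For subunit 6A the ratio of the forms was lower in each CCl4 library. Cox6a1 (chr5:115345642-115348981, minus strand) measured 42.3, 37.1 and 38.5 FPKM in the controls against 49.7, 48.0 and 47.7 FPKM in the CCl4 mice, and rose by a log2 fold change of 0.30 ± 0.08 (adjusted p = 0.0213, limma). Cox6a2 measured 856, 745 and 728 FPKM in the controls against 715, 647 and 624 FPKM in the CCl4 mice (-0.23 ± 0.09, adjusted p = 0.0987), without overlap. The ratio of Cox6a2 to Cox6a1 was 20.2, 20.1 and 18.9 in the controls against 14.4, 13.5 and 13.1 in the CCl4 mice. Its mean went from 19.7 ± 0.708 to 13.7 ± 0.676 (SD, n = 3 each), a log2 difference of -0.53 (exact permutation test, two-sided, p = 0.1, which is the smallest that 3 against 3 libraries allow; adjusted p = 0.133 over the 4 isoform pairs). The muscle form was the more abundant in every library. The call of Cox6a1 alone was lost with TPM (adjusted p = 0.214), without the mitochondrial genome (0.0562) and without any 1 library other than control 1 (0.0560 to 0.0776).

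For subunit 7A the ratio of the muscle to the common form was higher in each CCl4 library. Cox7a1 (chr7:30184144-30186078, plus strand) measured 195, 151 and 145 FPKM in the controls against 238, 202 and 219 FPKM in the CCl4 mice, and rose by 0.43 ± 0.12 (adjusted p = 0.0324, limma). Cox7a2 measured 143, 140 and 134 FPKM in the controls against 143, 116 and 126 FPKM in the CCl4 mice, with overlap (-0.11 ± 0.09, adjusted p = 0.364). The ratio of Cox7a1 to Cox7a2 was 1.37, 1.08 and 1.08 in the controls against 1.66, 1.73 and 1.74 in the CCl4 mice (log2 difference 0.55; two-sided exact permutation p = 0.1, adjusted p = 0.133). Every CCl4 library lay above every control, and control 1 was again the nearest. The call of Cox7a1 was lost with TPM (adjusted p = 0.124), with no filter (0.0977), and without control 2, control 3, CCl4 1 or CCl4 3 (0.0876 to 0.102).

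For subunit 8 the ratio of the forms overlapped between groups. Cox8b, the muscle form in mice, measured 231, 192 and 181 FPKM in the controls against 216, 173 and 182 FPKM in the CCl4 mice (-0.08 ± 0.12, adjusted p = 0.636). The common form Cox8a measured 74.3, 73.2 and 69.2 FPKM in the controls against 63.8, 62.1 and 66.5 FPKM in the CCl4 mice, without overlap (-0.17 ± 0.07, adjusted p = 0.106). Their ratio was 3.11, 2.62 and 2.62 in the controls against 3.39, 2.78 and 2.74 in the CCl4 mice, with overlap (log2 difference 0.09; exact permutation p = 0.5, adjusted p = 0.5).

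Cox4i2 (chr2:152754173-152765037, plus strand) was the member with the highest fold change, at a low level. It measured 6.08, 4.76 and 4.99 FPKM in the controls against 6.34, 9.34 and 7.51 FPKM in the CCl4 mice, and rose by 0.47 ± 0.14 (adjusted p = 0.0322, limma). The gap between the nearest libraries, control 1 and CCl4 1, was small beside the spread within the CCl4 group. Cox4i1, the most abundant member after Cox6a2 in this complex, measured 471, 430 and 407 FPKM in the controls against 443, 370 and 381 FPKM in the CCl4 mice (-0.13 ± 0.10, adjusted p = 0.326). The ratio of Cox4i2 to Cox4i1 was 0.0129, 0.0111 and 0.0123 in the controls against 0.0143, 0.0252 and 0.0197 in the CCl4 mice (log2 difference 0.67; exact permutation p = 0.1, adjusted p = 0.133). Cox4i2 is known from smooth muscle cells and pericytes, and the 9 markers of those cells summed to 201, 233 and 223 FPKM in the controls against 170, 251 and 237 FPKM in the CCl4 mice. Rgs5 was the largest part of that sum, at 130, 162 and 145 FPKM in the controls against 90.2, 129 and 120 FPKM in the CCl4 mice. Acta2, Cnn1 and Cspg4 of the same list were called higher. Within the CCl4 group the order of the libraries was the same for Cox4i2 and the sum. Among the controls it was the reverse, with control 1 highest for Cox4i2 and lowest for the sum. The part of these cells in the Cox4i2 difference was not tested. The call was lost with TPM (adjusted p = 0.0932), without the mitochondrial genome (0.0557), with no filter (0.103), and without control 2, control 3, CCl4 2 or CCl4 3 (0.0768 to 0.0958).

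The other 8 members tested in complex IV were not called, and among them only Cox7a2l had groups that did not overlap. Cox5a and Cox5b, which lie on the matrix side of the enzyme, averaged 149 and 118 FPKM, and Cox6b1, on the opposite side, 299.7 FPKM. Cox6b2, known as the testis form of subunit 6B, lay under the filter. It measured 0.80, 1.15 and 1.12 FPKM in the controls against 0.27, 0.42 and 0.43 FPKM in the CCl4 mice, and was called lower only in the fit with no filter. Cox7b2 was listed at 0 in 4 of the 6 libraries.

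**Figure D3:**
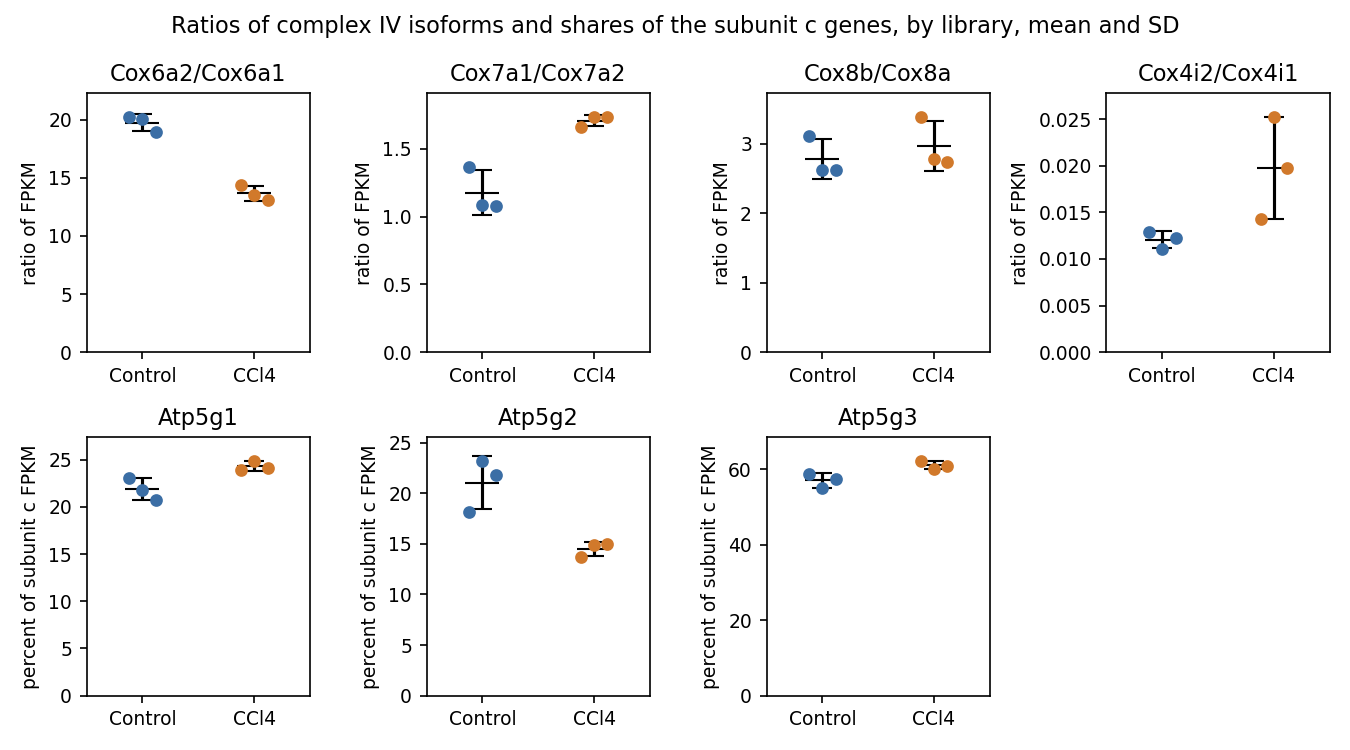
Upper row: ratio of FPKM of the muscle or oxygen-linked form to the common form of complex IV subunits (y axis) in 3 control and 3 CCl4 libraries (points), with mean and SD. Lower row: percent of the summed FPKM of the 3 subunit c genes taken by each; Cox6a2/Cox6a1 and the Atp5g2 share are lower in each CCl4 library, Cox7a1/Cox7a2 and Cox4i2/Cox4i1 are higher, and Cox8b/Cox8a overlaps.

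In complex V 1 of the 17 subunits rose and 2 fell (17.6% called), 9 had a fold change above 0, and the median was 0.02. The most abundant members were the catalytic core subunits. Atp5a1, the alpha subunit, measured 1072, 914 and 889 FPKM in the controls against 989, 925 and 988 FPKM in the CCl4 mice (0.02 ± 0.09, adjusted p = 0.901). Atp5b, the beta subunit that carries the catalytic sites, measured 971, 884 and 842 FPKM in the controls against 785, 731 and 776 FPKM in the CCl4 mice, without overlap (-0.23 ± 0.08, adjusted p = 0.0652). The alpha and beta subunits alternate in equal numbers in the enzyme. Here the beta transcript was lower in every CCl4 library than in any control, and the alpha transcript overlapped.

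The central stalk held both directions. Atp5c1 (chr2:10056016-10080510, minus strand), the gamma subunit that turns inside the catalytic head, measured 491, 492 and 459 FPKM in the controls against 420, 383 and 390 FPKM in the CCl4 mice. It fell from 481 ± 18.9 to 397 ± 19.6 FPKM (SD, n = 3 each; log2 fold change -0.27 ± 0.08, adjusted p = 0.0288, limma). Atp5d (chr10:80138632-80145818, plus strand), the delta subunit at the foot of the stalk, measured 159, 133 and 133 FPKM in the controls against 181, 162 and 177 FPKM in the CCl4 mice. It rose by 0.29 ± 0.10 with an adjusted p of 0.0491 by limma, near the threshold, and control 1 at 159 FPKM was close to CCl4 2 at 162 FPKM. The ratio of Atp5d to Atp5c1 was 0.324, 0.271 and 0.290 in the controls against 0.430, 0.423 and 0.454 in the CCl4 mice, without overlap. Atp5e, the epsilon subunit and the remaining part of the stalk, overlapped between groups at a mean of 46.2 FPKM in control and 45.3 FPKM in CCl4. The call of Atp5c1 was lost with TMM, median-ratio and quantile scaling (adjusted p = 0.209 to 0.219), with no filter (0.0671), and without control 2, CCl4 2 or CCl4 3 (0.0962 to 0.103). That of Atp5d was lost in 9 of 16 alternatives, among them TPM (adjusted p = 0.317) and the omission of any library other than control 1 (0.0664 to 0.148).

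**Figure D4:**
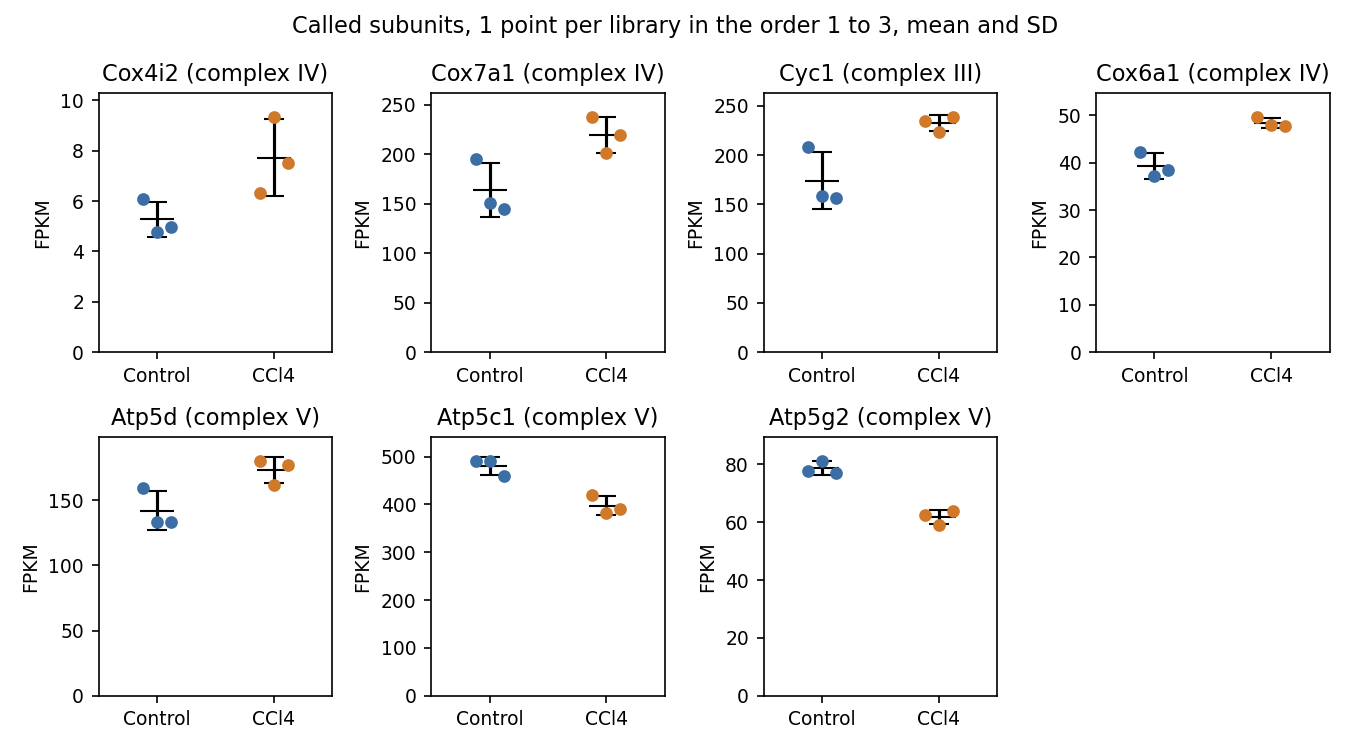
FPKM (y axis, from 0) of the 7 called subunits in 3 control and 3 CCl4 libraries, 1 point per library in the order 1 to 3, with mean and SD. In each panel the groups do not overlap; control 1 is the control nearest to the CCl4 libraries in the 5 genes that rose, and the gap is narrow in Atp5d, from 159 to 162 FPKM, and in Cox4i2, from 6.08 to 6.34 FPKM.

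Subunit c, the building block of the proton-driven ring, is encoded by Atp5g1, Atp5g2 and Atp5g3. The genes differ in the import signal, which is cut off, and yield the same mature protein. Their transcripts had fold changes of opposite sign. Atp5g2 (chr15:102662864-102672352, minus strand) fell from 77.8, 81.3 and 77.1 FPKM in control to 62.6, 59.0 and 63.9 FPKM in CCl4 libraries (-0.34 ± 0.07, adjusted p = 0.00914, limma), the smallest adjusted p of all members. Atp5g1 measured 99.0, 76.3 and 73.5 FPKM in the controls against 109, 98.8 and 103 FPKM in the CCl4 mice, with overlap (0.33 ± 0.12, adjusted p = 0.0639). Atp5g3, the most abundant of the 3, measured 252, 192 and 204 FPKM in the controls against 285, 239 and 259 FPKM in the CCl4 mice, with overlap (0.28 ± 0.12, adjusted p = 0.105). Control 1 was the library that made both overlap.

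Taken as a share of the subunit c transcripts, Atp5g2 supplied 18.1%, 23.2% and 21.8% in control and 13.7%, 14.9% and 15.0% in CCl4 libraries. The share went from 21.0% ± 2.62 to 14.5% ± 0.700 (SD, n = 3 each), while that of Atp5g1 went from 21.9% ± 1.17 to 24.3% ± 0.517 and that of Atp5g3 from 57.1% ± 1.92 to 61.1% ± 1.10. All 3 shares separated the groups. The sum of the 3 genes was 378 ± 44.3 FPKM in control and 426 ± 29.8 FPKM in CCl4 libraries, with overlap. The ratio of Atp5g1 to Atp5g2 was 1.27, 0.938 and 0.953 in the controls against 1.74, 1.67 and 1.61 in the CCl4 mice, and that of Atp5g3 to Atp5g2 was 3.24, 2.37 and 2.64 against 4.54, 4.04 and 4.06. Atp5g2 was lower with every scaling tried, and its call was lost with TMM, median-ratio and quantile scaling (adjusted p up to 0.0677).

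Reads of some members could be shared with near-identical copies elsewhere in the genome. Of 44 members searched, at least 10 had a copy at 1 FPKM or more that shared at least 20% of its words of 31 bases with the member or the reverse, 15 copies in all. A copy was given a level only where its GENCODE symbol was also the symbol of a row, so the count is a lower limit. Cox6a1, which rose, has 23.8% of its words in AC148174.2, which matched no row. Cox5b and Atp5pb have 28.7% and 28.4% of their words in genes that matched none, while the rows Cox5b-ps and Atp5pb-ps stood at 41.7 and 10.1 FPKM. For Atp5g2 they were Gm10175 and Gm10231, all of whose words occur in Atp5g2. Gm10175 went from 38.3 ± 3.38 to 28.9 ± 1.11 FPKM (SD, n = 3 each; -0.39 ± 0.09, adjusted p = 0.0113, limma) and Gm10231 from 37.2 ± 5.97 to 29.1 ± 2.11 FPKM (-0.33 ± 0.12, adjusted p = 0.0716), both with the sign of Atp5g2. For Atp5g1 the copy Gm10039, with 92.9% of its words in Atp5g1, stood at 228 FPKM, above the 93.3 FPKM of Atp5g1, with a log2 fold change of 0.31. Levels of members with such copies, among them Atp5g1, Atp5g2 and Cox6a1, are therefore uncertain, since how the quantification divided shared fragments was not given in the sources used. This holds also for Atp5l, Uqcrb and Atp5h, which have 69.6%, 54.3% and 46.9% of their words in other genes. Atp5g3 had no word in common with another gene.

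The remaining complex V members were not called. Among them Atp5pb, subunit b of the peripheral stalk, did not overlap between groups, with 157, 156 and 147 FPKM in the controls against 183, 169 and 175 FPKM in the CCl4 mice (0.20 ± 0.07, adjusted p = 0.0710). The other peripheral stalk subunits Atp5h, Atp5j and Atp5o had fold changes below 0 and overlapped. The membrane subunits Atp5j2, Atp5k, Atp5l, Atp5md and Atp5mpl also overlapped, and all but Atp5l had fold changes above 0. Atp5l also had a more abundant copy, Gm10221, at 78.0 FPKM against 27.5 FPKM.

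The start regions of the subunit c genes and, where found, of the called complex IV genes with their partners are shown. These genes are alike in product within a set or pair and had fold changes of opposite sign there. Of the genes shown, Atp5g2, Cox6a1 and Cox7a1 were called. Each line gives the 200 bases before the RefSeq transcription start on GRCm38.p6, 5' to 3' on the gene's strand, with matches to 3 motifs in capitals. The motifs, searched on both strands, were GGAAGT (bound by GABPA-type factors), GCGCATGCG (NRF1-type) and GCCATNTT (YY1-type), all known from respiratory chain promoters. The windows are chr11:96075632-96075831, minus strand (Atp5g1), chr15:102671048-102671247, minus strand (Atp5g2), chr2:73911327-73911526, minus strand (Atp5g3), chr5:115348959-115349158, minus strand (Cox6a1), chr7:30183971-30184170, plus strand (Cox7a1) and chr9:79759854-79760053, minus strand (Cox7a2).
Atp5g1: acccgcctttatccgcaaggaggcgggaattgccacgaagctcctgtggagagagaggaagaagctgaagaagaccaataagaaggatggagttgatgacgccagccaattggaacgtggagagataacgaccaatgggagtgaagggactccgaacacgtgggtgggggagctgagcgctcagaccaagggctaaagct
Atp5g2: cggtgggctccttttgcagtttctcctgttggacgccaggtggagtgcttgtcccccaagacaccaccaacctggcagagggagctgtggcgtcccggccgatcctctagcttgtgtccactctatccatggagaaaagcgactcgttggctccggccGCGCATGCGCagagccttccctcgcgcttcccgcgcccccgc
Atp5g3: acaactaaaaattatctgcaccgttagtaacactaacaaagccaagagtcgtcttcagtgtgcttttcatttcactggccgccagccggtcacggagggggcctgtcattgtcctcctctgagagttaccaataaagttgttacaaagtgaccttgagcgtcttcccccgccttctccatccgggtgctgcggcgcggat
Cox6a1: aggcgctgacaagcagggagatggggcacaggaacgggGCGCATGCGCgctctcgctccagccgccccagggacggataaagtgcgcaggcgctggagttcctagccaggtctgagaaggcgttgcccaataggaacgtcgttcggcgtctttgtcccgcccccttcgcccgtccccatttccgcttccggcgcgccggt
Cox7a1: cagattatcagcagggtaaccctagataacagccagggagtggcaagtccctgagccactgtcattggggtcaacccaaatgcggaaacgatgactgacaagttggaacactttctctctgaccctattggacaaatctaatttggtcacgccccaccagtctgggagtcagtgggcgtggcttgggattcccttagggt
Cox7a2: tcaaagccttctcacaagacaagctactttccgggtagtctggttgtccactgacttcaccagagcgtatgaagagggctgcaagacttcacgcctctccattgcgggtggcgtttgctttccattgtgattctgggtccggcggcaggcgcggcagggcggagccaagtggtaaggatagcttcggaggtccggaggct
The capitals in Atp5g2, which fell, and in Cox6a1, which rose, are the same 10 letters, in which the NRF1-type motif reads on both strands with an overlap. The lines of Atp5g1, Atp5g3, Cox7a1 and Cox7a2 hold no match. Base composition ran from 51.5% G and C in Atp5g3 to 67.0% in Cox6a1.

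A start region was found in the RefSeq table for 34 of the 46 tested members, and Cyc1, Cox4i2 and Cox6a2 were among the 12 without one. In the 200 bases before the start the GABPA-type letters occurred in 11 of 34 members (32.4%) and in 20.5% of the 8078 tested genes with a window. The NRF1-type letters occurred in 3 members (8.82%) and in 3.06% of tested genes, and the YY1-type letters in 0 members and 3.76% of tested genes. In the whole table windows of 300 bases, which run past the start, the shares were 35.3% and 29.0% for the GABPA-type, 17.6% and 3.96% for the NRF1-type and 11.8% and 9.47% for the YY1-type letters. A match describes the letters only and is no measure of binding.

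The shares called were larger among genes around the complexes than among the subunits, a difference that was not tested. Of 40 tested assembly factors, the proteins that build and load the complexes, 16 rose and 0 fell at an adjusted p under 0.05 in limma (40.0%; 0 also fell at an unadjusted p under 0.05), with a median log2 fold change of 0.22. The background was 9.64% of all rows higher, 22.2% lower and a median of -0.09. Cmc2, a complex IV assembly factor, rose from 4.71 ± 0.750 to 9.73 ± 0.425 FPKM (0.92 ± 0.10, adjusted p = 0.000688). Coa3, which binds the newly made catalytic subunit of complex IV, rose by 0.60 ± 0.09 (adjusted p = 0.00228). For complex III, Uqcc1, which aids the synthesis of cytochrome b, rose by 0.54 ± 0.09 (adjusted p = 0.00305), and Bcs1l, which inserts the Rieske protein Uqcrfs1, rose by 0.70 ± 0.12 (adjusted p = 0.00390). These 4 genes were called in all 16 alternatives. With TPM 10 assembly factors were higher and 2 lower, and with no filter 1 was lower.

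Of the 6 subunits of complexes III to V encoded by the mitochondrial genome, 4 were called higher and 0 lower by limma (66.7%). Of all rows 9.64% were called higher and 22.2% lower. All 6 fold changes lay above 0, with a median of 0.34, against -0.09 over all rows. mt-Atp6 rose by 0.42 ± 0.09 (adjusted p = 0.00964), mt-Atp8 by 0.42 ± 0.09 (adjusted p = 0.00960), mt-Co3 by 0.39 ± 0.09 (adjusted p = 0.0141) and mt-Cytb by 0.30 ± 0.08 (adjusted p = 0.0230). Within complex IV mt-Co3 was the 1 of 3 called higher, beside 3 of 16 nuclear subunits. mt-Co1 and mt-Co2 had fold changes of 0.21 and 0.29 that did not pass the test (adjusted p = 0.0710 and 0.0564, limma). With no filter 0 of the 6 were called, and with quantile scaling 0 were higher and 1, mt-Co2, was lower, while all 6 were higher with a mean of at least 5 FPKM and with robust variances. Quantile scaling gives rows near the top of each library, such as these, nearly the same values in every library. It is therefore no test of their difference. The call of mt-Cytb was also lost with TPM (adjusted p = 0.115) and without control 2, control 3, CCl4 1 or CCl4 3 (0.0575 to 0.0816).

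Electron carriers and transporters that work with the complexes went both ways, with 4 of 16 higher and 5 lower (56.2% called, against 31.8% of all rows). The counts were 1 and 6 with TPM, 4 and 3 with TMM, 5 and 3 with median-ratio and 6 and 3 with quantile scaling, 3 and 6 without the mitochondrial genome and 2 and 3 with no filter. Without 1 library they ran from 1 (without CCl4 3) to 7 (without control 1) higher and from 4 to 5 lower. Cycs, the cytochrome c that carries electrons from Cyc1 to complex IV, rose from 115, 87.8 and 99.0 FPKM in control to 164, 154 and 162 FPKM in CCl4 libraries (0.67 ± 0.11, adjusted p = 0.00292). Slc25a5, an ADP/ATP carrier found in many tissues, rose by 0.43 ± 0.10 (adjusted p = 0.0133), whereas Slc25a4, the carrier of heart and muscle, fell from 1577 ± 93.9 to 1233 ± 41.5 FPKM (-0.35 ± 0.08, adjusted p = 0.0124). Coq7, an enzyme of ubiquinone synthesis, and Hccs, which attaches haem to cytochromes c and c1, rose by 0.38 and 0.33. The electron-transferring flavoproteins, which feed electrons from fatty acid oxidation into ubiquinone, fell together: Etfa by a log2 fold change of -0.44, Etfb of -0.47 and Etfdh of -0.43 (adjusted p = 0.00309, 0.00537 and 0.00448). These 3 genes were called in all 16 alternatives, as was Cycs. The call of Slc25a5 was lost with TPM (adjusted p = 0.0717) and without CCl4 3 (0.0505), and that of Slc25a4 with TMM, median-ratio and quantile scaling and no filter (0.0711 to 0.199). Coq7 lost its call with TPM (0.0989), with no filter (0.0672) and without control 2, CCl4 1 or CCl4 3 (0.0624 to 0.0857). Hccs lost its call with TPM (0.224), no filter (0.124), a pseudocount of 0.1 (0.0508), without the mitochondrial genome (0.110) and without control 2, control 3, CCl4 2 or CCl4 3 (0.0797 to 0.150).

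Among 15 tested regulators of respiratory chain genes 1 rose and 5 fell (40.0% called, against 31.8% of all rows). The counts were 0 and 8 with TPM, 1 and 3 with TMM, 1 and 2 with median-ratio and quantile scaling, 0 and 5 without the mitochondrial genome and 0 and 1 with no filter. Without 1 library they ran from 0 to 1 higher and from 2 (without control 2) to 4 lower, with 0 higher in each case but control 1. Ppargc1a, the coactivator PGC-1alpha, fell from 16.2 ± 1.78 to 9.61 ± 0.950 FPKM (-0.70 ± 0.10, adjusted p = 0.00223). Myc fell from 2.38 ± 0.847 to 0.787 ± 0.315 FPKM (-0.90 ± 0.20, adjusted p = 0.0128). Gabpa, the DNA-binding subunit of the factor whose letters were searched above, fell by a log2 fold change of -0.33 (adjusted p = 0.0229), and Polg, the mitochondrial DNA polymerase, of -0.36 (adjusted p = 0.0182). Tfam, which packs mitochondrial DNA and starts its transcription, rose by 0.32 (adjusted p = 0.0436). Ppargc1a was called in all 16 alternatives. Myc was called in 14 of 15, and its call was lost with no filter (adjusted p = 0.0613). At its low level Myc was not tested with the filter at 5 FPKM. Gabpa lost its call with median-ratio and quantile scaling, with no filter and without control 2, control 3 or CCl4 2 (adjusted p = 0.0507 to 0.0582). Polg lost its call with TMM, median-ratio and quantile scaling, with no filter and without control 2, CCl4 1 or CCl4 2 (0.0517 to 0.0606). Tfam lost its call with TPM (0.215), with no filter (0.109), without the mitochondrial genome (0.0929) and without any 1 library other than control 1 (0.0758 to 0.130). Nrf1, the factor of the NRF1-type letters, was under the filter at 1.08 FPKM in control and 0.857 FPKM in CCl4. Yy1, the factor of the YY1-type letters, was also called lower, near the threshold. It fell from 8.39 ± 0.367 to 6.69 ± 0.778 FPKM (-0.29 ± 0.09, adjusted p = 0.0421, limma).

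**Figure D5:**
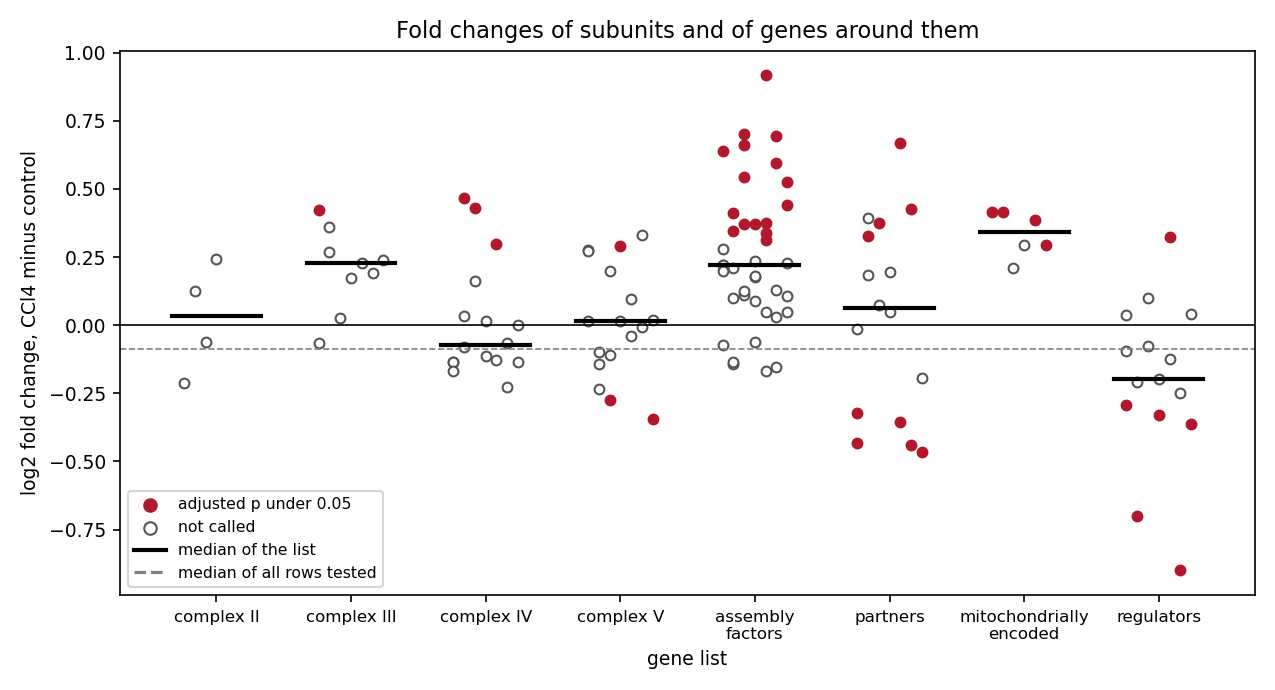
Log2 fold changes (y axis, CCl4 minus control) of the tested subunits of each complex and of 4 lists of genes around them (x axis); each point is a gene, filled where the adjusted p is under 0.05, black bars are list medians and the dashed line is the median of all rows. Assembly factors reach 0.92 for Cmc2, while no subunit exceeds the 0.47 of Cox4i2.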

How the data were processed

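The authors deposited FPKM values for 6 libraries, made with StringTie 2.1.6 on GRCm38, per the submitters' processing notes. Aligner, annotation, strand setting and filters were not given in the sources used. FPKM sums ran from 519609 to 602763. Fragment counts were not recovered. The search for the level of a single fragment could only return depths within a preset range. With the level it chose, 21.9% to 35.1% of low values came near whole fragments. The depth of the libraries is therefore not known from these values. The deposited FPKM values were transformed here to log2(FPKM + 1), rows averaging at least 1 FPKM were kept, and groups were compared by limma 3.58.1 in R 4.3.3 (lmFit, eBayes with trend, two-sided, no covariate, Benjamini-Hochberg adjustment over 10995 rows). Fold changes are on this scale and understate those of low genes. The limma p-values set the difference between the groups against the spread between libraries of the same group. Ratios within a library were compared by exact permutation tests (scipy 1.17.1).

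Members and gene lists were chosen with earlier results of these data known. The text names called members, isoform pairs, the most abundant and most changed member of each complex, and up to 4 called genes each way of other lists. Yy1 was added to these after its values were seen. Atp5b, Atp5e, Atp5g1, Atp5g3, Atp5pb, Uqcrh, the copies and the ratios of Cyc1, Atp5d, Atp5g1 and Atp5g3 to another subunit were chosen after seeing their values. The contrast of complex III with complex IV was not among the planned comparisons. Positions are from GENCODE and start regions from RefSeq, both on GRCm38; symbols Atp5pb and Atp5md were matched by an older name, and Atp5o had no single position. Alternatives were a pseudocount of 0.1, no filter, a filter at 5 FPKM, TPM, TMM, median-ratio and quantile scaling, robust variances, a replicate block, and each library left out. A further alternative omitted the mitochondrial genome rows and divided each library by the FPKM sum of its other rows.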

Additional observations from a re-analysis of the deposited data

How the results depend on the processing

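Against 5 members higher and 2 lower in the comparison as reported, the counts higher and lower were 1 and 2 with no filter, 0 and 11 with TPM, 7 and 0 with TMM, 8 and 0 with median-ratio, 12 and 1 with quantile scaling, and 2 and 6 without mitochondrial genome rows. Without 1 library they ranged from 0 to 15 and from 1 to 2. With the replicate block they were 2 and 1 (Cyc1, Cox7a1 and Atp5g2), and for the regulators 0 and 3. The replicate numbers share only a number: the correlations of same-numbered libraries' deviations were -0.06, 0.05 and -0.04, and not every library correlated best with its own number. The calls were as reported with a pseudocount of 0.1, a mean FPKM of at least 5 and robust variances. With TPM the medians were -0.14 over members, -0.12, 0.0738, -0.23 and -0.14 for complexes II to V, and 10 assembly factors were higher and 2 lower (1 lower with no filter). The complex II median was 0.12 with TMM and 0.13 with median-ratio and quantile scaling, and that of complex IV was 0.0676 with quantile scaling. The cause of these shifts was not tested. Signs turned in genes that were not called: Cox7a2 (0.00903) and Cox4i1 (0.0790) with quantile scaling, Cox8b with TMM (0.0106) and median-ratio scaling (0.0168), and Atp5a1 with TPM (-0.14) and without mitochondrial rows (-0.0565). Without 1 library Cox8b ranged from -0.17 to 0.0224, Atp5a1 from -0.0343 to 0.10, and the Cox8b/Cox8a log2 ratio difference from -0.00710 to 0.17. Leaving out a library also leaves fewer degrees of freedom. For low genes depth limits precision.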
